A study of Mus musculus with 8 samples.

Results

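The genes examined were 10 components of the activating receptor machinery of natural killer (NK) cells, chosen by symbol from the 48321 gene symbols listed for each library: the receptors *Ncr1* and *Fcgr3*, the adaptors *Tyrobp*, *Hcst*, *Fcer1g* and *Cd247*, the kinases *Zap70*, *Syk* and *Lck*, and the scaffold *Lat*. All 10 members were among the 12595 genes that passed the filter on low counts and were tested. RNA of NK cells from both organs, lung and spleen, sorted as CD45+ TCRb- NK1.1+ was sequenced in 8 libraries, 2 for each of 4 groups, *Wt* and KO in either organ. All mice were of the C57/Bl6 background. KO stands for *Ccl5* ΔPE/ΔPE, the germline deletion of *Ccl5-PE*, an enhancer close to the chemokine gene *Ccl5*, so the cells around the NK cells carried it too. The labels give neither age nor sex, and separate mice are not stated for the 2 libraries of any group, so p-values measure only the spread between these libraries, which may be technical.

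NK cells recognise targets through germline-encoded receptors. Many of the activating ones have no signalling part of their own and pair in the membrane with small adaptor proteins. FcRγ (*Fcer1g*), CD3ζ (*Cd247*) and DAP12 (*Tyrobp*) carry immunoreceptor tyrosine-based activation motifs (ITAMs). Src family kinases such as Lck phosphorylate these, and the tandem SH2 domains of Syk and ZAP-70 then bind them. DAP10 (*Hcst*) has no ITAM and recruits PI3K and Grb2 in its place. LAT is a membrane scaffold that the active kinases phosphorylate and on which phospholipase Cγ is assembled. T cells depend mainly on ZAP-70, whereas NK cells have both kinases.

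In GENCODE M21 (GRCm38), 4 members lie on chromosome 1, 4 on chromosome 7, 1 on chromosome 4 and 1 on chromosome 13. *Tyrobp* (chr7:30413760-30417585, plus strand) and *Hcst* (chr7:30417712-30419854, minus strand) are tail-to-tail neighbours with 126 bases between their ends. *Ncr1* is at chr7:4337724-4345164 (plus), *Lat* at chr7:126363824-126369570 (minus), *Fcgr3* at chr1:171051174-171064935 (minus), *Fcer1g* at chr1:171229572-171234365 (minus), *Cd247* at chr1:165788681-165877277 (plus), *Zap70* at chr1:36761798-36782818 (plus), *Lck* at chr4:129548344-129573641 (minus) and *Syk* at chr13:52583173-52648792 (plus). All are protein-coding, and their values are reads over exons. *Cd247* and *Fcgr3* are uncertain as counts. Exons of the antisense gene *Pou2f1* cover 56.43% of the exon length of *Cd247*, and the library kit did not mark strand. *Fcgr3* shares 9.58% of its 50-base words with *Fcgr2b*, which stood at 76.1 to 121.3 CPM over the groups (counts relative to the TMM-scaled library size).

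Promoter windows from 250 bases before to 50 bases after a transcription start were available from RefSeq (GRCm38.p6) for 9 of the 10 members, all but *Tyrobp*, in 15 windows. The windows shown are those of the kinase pair and of the receptor and adaptor that passed the test in both organs, read 5′ to 3′ on the strand of the gene. Capitals mark the RUNX letters TGTGGT or ACCACA (the same letters on the other strand), since RUNX/CBFβ complexes are the factors this study was about. The paper writes its RUNX site as PuACCPuCA (Pu, a purine), which is another pattern. The letters leave its first Pu open and take only A for its second. Windows that match the letters and windows that match the pattern can therefore differ, and the pattern was not searched.
Zap70, first start (chr1:36761548-36761847, plus strand): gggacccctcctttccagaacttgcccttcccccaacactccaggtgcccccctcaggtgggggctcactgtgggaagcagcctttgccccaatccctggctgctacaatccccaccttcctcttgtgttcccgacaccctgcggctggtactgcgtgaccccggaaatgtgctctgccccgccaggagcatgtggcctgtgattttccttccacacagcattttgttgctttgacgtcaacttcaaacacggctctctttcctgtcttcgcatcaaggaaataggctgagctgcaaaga
Zap70, second start (chr1:36764265-36764564, plus strand): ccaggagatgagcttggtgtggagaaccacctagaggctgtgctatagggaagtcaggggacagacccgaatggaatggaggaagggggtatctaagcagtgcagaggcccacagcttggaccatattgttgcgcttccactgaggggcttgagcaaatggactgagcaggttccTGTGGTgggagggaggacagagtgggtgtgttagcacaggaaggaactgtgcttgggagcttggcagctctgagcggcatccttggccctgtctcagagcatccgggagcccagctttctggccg
Syk, first start (chr13:52583187-52583486, plus strand): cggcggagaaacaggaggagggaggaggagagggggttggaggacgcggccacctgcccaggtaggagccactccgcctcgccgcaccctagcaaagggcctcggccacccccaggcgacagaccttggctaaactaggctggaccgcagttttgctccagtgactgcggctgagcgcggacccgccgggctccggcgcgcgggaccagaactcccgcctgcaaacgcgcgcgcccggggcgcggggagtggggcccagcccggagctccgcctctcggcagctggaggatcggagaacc
Ncr1, first start (chr7:4337465-4337764, plus strand): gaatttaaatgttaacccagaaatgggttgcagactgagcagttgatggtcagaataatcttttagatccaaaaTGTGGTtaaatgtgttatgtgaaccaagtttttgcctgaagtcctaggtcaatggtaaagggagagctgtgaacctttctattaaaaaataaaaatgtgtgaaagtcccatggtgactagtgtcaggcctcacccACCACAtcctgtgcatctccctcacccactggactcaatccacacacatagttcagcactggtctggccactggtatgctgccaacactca
Fcer1g (chr1:171234300-171234599, minus strand): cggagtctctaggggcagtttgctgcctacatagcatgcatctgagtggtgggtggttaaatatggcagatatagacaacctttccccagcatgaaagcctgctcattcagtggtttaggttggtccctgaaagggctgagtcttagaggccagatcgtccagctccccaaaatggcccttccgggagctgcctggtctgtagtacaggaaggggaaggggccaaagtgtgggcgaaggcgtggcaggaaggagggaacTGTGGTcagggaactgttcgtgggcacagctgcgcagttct
*Ncr1* held the letters at positions -176 and -41 from the start, *Fcer1g* at position 9 and the second start of *Zap70* at position -75, and neither the first start of *Zap70* nor that of *Syk* held them. The letters were found in 6 of the 15 windows, 2 of them overlapping windows of *Ncr1* and the others of *Fcer1g*, *Lat*, *Lck* and *Zap70*, and in 16.8% of all 32851 RefSeq windows. The ETS letters AGGAAG (35.4% of all windows) were in 10 of the 15, the T-box letters GGTGTG (19.0%) in 4, the Sp/KLF letters GGGCGG (35.7%) in 1 and the AP-1 letters TGANTCA (7.81%) in 0, each searched on both strands. Several windows per gene overlap or serve 1 gene, and a match of letters is a description of the window only. The first *Syk* window stood apart in base composition, with 72% G or C and 31 CpG, against medians of 52.7% and 7 over all windows.

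The deletion was checked on *Ccl5* itself. *Ccl5* stood at 18900 ± 824 CPM (SD, n = 2) in *Wt* and 3088 ± 143 in KO for lung, and at 16140 ± 717 and 2549 ± 172 in spleen. The genotype labels thus held in both organs, while *Ccl5* does not check the organ labels. Between 3132963 and 26482366 reads were counted per library, and 3 reads, the limit that a count of 0 allows, corresponded to at most 0.977 CPM, a limit for counting error only. No member came near it, since the lowest member value in any library was 59.3 CPM. The spread between libraries was small, with a common biological coefficient of variation of 2.5%, and most genes passed the test of KO against *Wt* in either organ and of lung against spleen in either genotype. The log2 fold change of KO against *Wt* moved with the GC content of genes, with a Spearman correlation across genes of 0.295 in lung and -0.278 in spleen. Values after removal of that trend from each library (the GC offset) are given for the KO effect of each member, and the part of GC content in the results was not tested further.

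Per kilobase of exon, *Fcer1g*, *Tyrobp* and *Ncr1* stood far above the other members. In lung *Wt*, *Fcer1g* was the highest member at 3262 ± 193 CPM per kb (SD, n = 2), followed by *Tyrobp* at 2327 ± 113 and *Ncr1* at 2048 ± 5.21. *Lck* reached 503 ± 20.9 CPM per kb, *Hcst* 151.1 ± 14.2, *Fcgr3* 113.6 ± 5.99, *Lat* 68.87 ± 0.119 and *Cd247* 59.68 ± 3.07. The place of *Cd247* is uncertain, since antisense exons cover 56.43% of its exon length. The ITAM-binding kinases were the lowest, *Zap70* at 29.91 ± 0.869 and *Syk* at 7.283 ± 0.0102 CPM per kb. *Fcer1g* stayed highest in lung KO (2808) and spleen KO (3589), but in spleen *Wt* its 2534 ± 132 CPM per kb lay within 1 SD of the 2629 ± 156 of *Tyrobp*. *Syk* was the lowest of the 10 in all 4 groups.

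**Figure D1:**
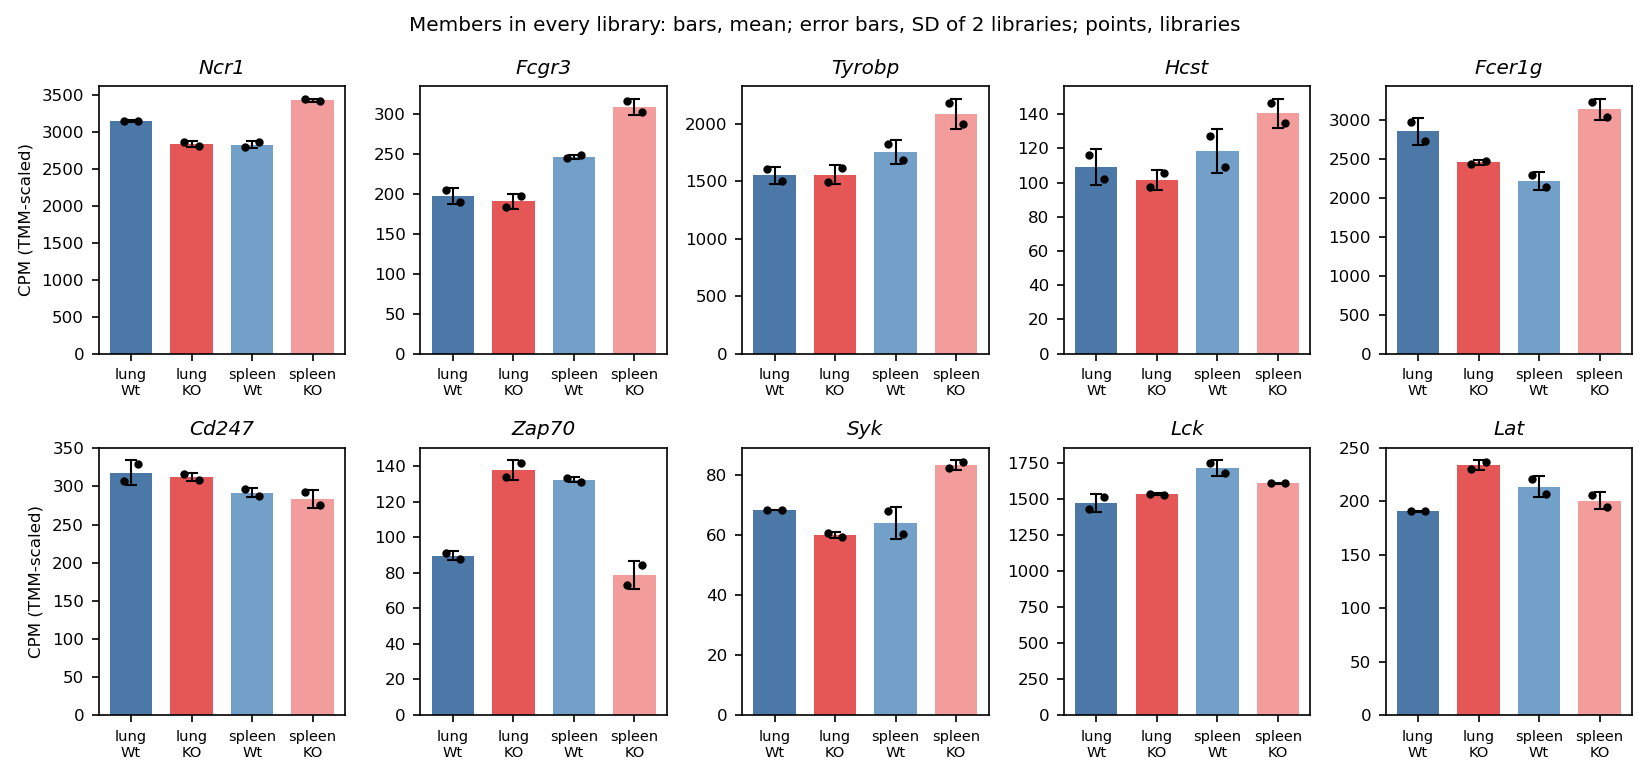
Level of each member in CPM (scaled by TMM) in the 4 groups. Bars show the mean of 2 libraries, error bars the SD and points the libraries, and each axis starts at 0. *Zap70* is highest in lung KO and spleen *Wt*, *Syk* in spleen KO.

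KO against *Wt* was compared within each organ. In lung, 5 of the 10 members passed an FDR of 0.05 (edgeR's quasi-likelihood test, Benjamini-Hochberg adjusted), against 55.6% of all genes tested. *Zap70* and *Lat* rose (29.2% of all genes rose), and *Ncr1*, *Fcer1g* and *Syk* fell (26.4% of all genes fell). In spleen, 8 of 10 passed, against 57.1% of all genes. *Ncr1*, *Fcgr3*, *Tyrobp*, *Hcst*, *Fcer1g* and *Syk* rose (28.2% of all genes rose), and *Zap70* and *Lck* fell (28.9% of all genes fell). The shares of members called in lung were thus near the background. The median log2 fold change over the members was -0.04 in lung and 0.25 in spleen, against 0.02 and 0.00 over all genes tested, and the median size of the change regardless of sign was 0.14 and 0.26, against 0.36 and 0.33.

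**Figure D2:**
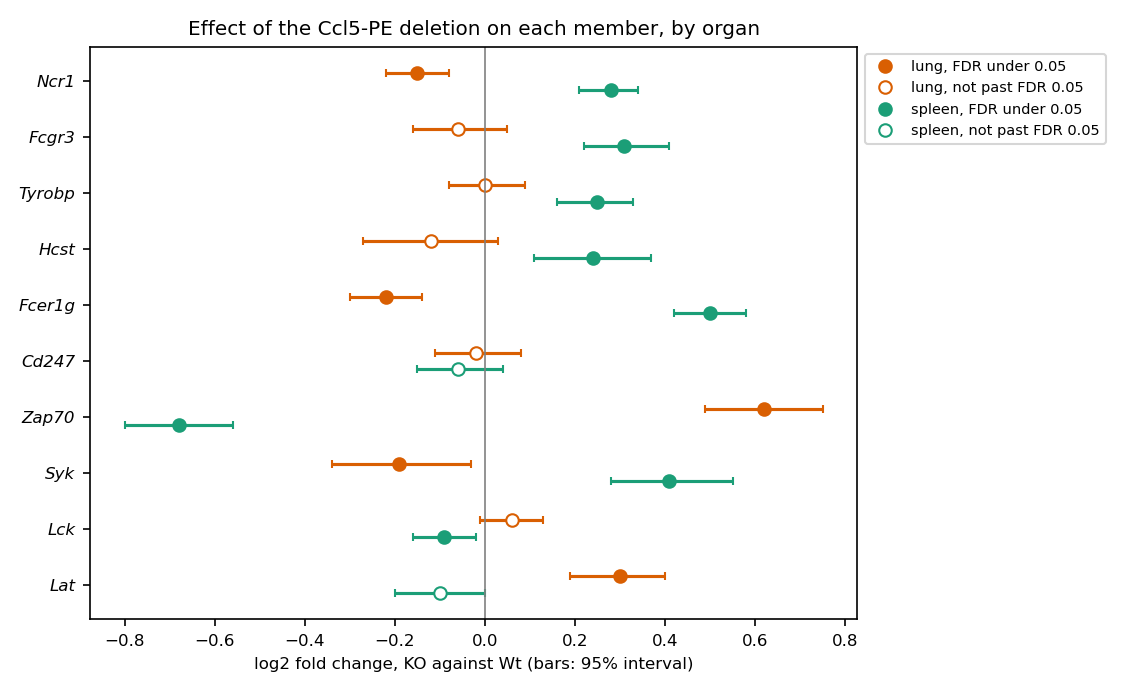
Log2 fold change of KO against *Wt* for each member in lung and spleen, with the 95% interval of the fit as bars. Filled points passed an FDR of 0.05. *Ncr1*, *Fcer1g* and *Syk* lie below 0 in lung and above 0 in spleen, *Zap70* the reverse, and *Cd247* lies near 0 in both.

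Both receptors rose in spleen KO. *Ncr1* encodes NKp46, the natural cytotoxicity receptor of mouse NK cells, which signals through CD3ζ and FcRγ. Its lung levels were 3159 and 3148 CPM (*Wt*) and 2871 and 2809 CPM (KO), and its spleen levels 2796 and 2872 CPM (*Wt*) and 3449 and 3421 CPM (KO). The groups did not overlap within either organ, low in lung KO and high in spleen KO. *Ncr1* fell by 9.97% in lung (log2 fold change -0.15, SE 0.03, adjusted p = 0.00021) and rose in spleen by 21.1% (0.28, SE 0.03, adjusted p = 7.1e-09). Under the GC offset these changes were -0.08 (adjusted p = 0.017) and 0.20 (adjusted p = 4.9e-07). Scaled by library totals alone, the lung difference was -0.06 (adjusted p = 0.13) and lost its call. The order of the levels was spleen KO, lung *Wt*, lung KO, spleen *Wt*, and only the last pair did not pass a test of the step (adjusted p = 0.97).

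*Fcgr3* encodes CD16, the low-affinity receptor for IgG that triggers antibody-dependent killing. In lung its levels were 204.5 and 189.8 CPM (*Wt*) and 183.4 and 197.0 CPM (KO), and its spleen levels 244.3 and 248.0 CPM (*Wt*) and 315.7 and 301.7 CPM (KO). Both spleen groups lay above both lung groups, and the lung groups overlapped. The rise in spleen KO was 24.1% (log2 fold change 0.31, SE 0.05, adjusted p = 5.4e-07). In lung the difference was -0.06, with a 95% interval from -0.16 to 0.05 (adjusted p = 0.38), and it passed the test at -0.13 (adjusted p = 0.034) under the GC offset, which gave 0.35 in spleen. *Fcgr2b*, which shares sequence with it, went from 76.14 ± 0.844 to 121.3 ± 1.93 CPM (SD, n = 2) in spleen.

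Of the 4 adaptors, 3 rose in spleen KO and 1 fell in lung KO. In the fit without the GC offset, *Fcer1g* showed the largest differences among them. FcRγ also serves Fc receptors of myeloid and mast cells. Lung levels of *Fcer1g* were 2970 and 2732 CPM (*Wt*) and 2432 and 2477 CPM (KO), and its spleen levels 2296 and 2133 CPM (*Wt*) and 3232 and 3041 CPM (KO). The 4 groups did not overlap, and each step of their order (spleen KO, lung *Wt*, lung KO, spleen *Wt*) passed the test. *Fcer1g* fell by 14.0% in lung (log2 fold change -0.22, SE 0.04, adjusted p = 1.3e-05) and rose by 41.5% in spleen (0.50, SE 0.04, adjusted p = 2.8e-13). The GC offset gave -0.39 and 0.64.

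*Tyrobp*, the DAP12 gene, serves activating Ly49 receptors and NKG2C. Its lung levels were 1605 and 1499 CPM (*Wt*) and 1497 and 1618 CPM (KO), and its spleen levels 1827 and 1680 CPM (*Wt*) and 2179 and 1994 CPM (KO). Spleen KO was the highest group and the lung groups lay on top of each other. The spleen rise was 18.7% (log2 fold change 0.25, SE 0.04, adjusted p = 6.2e-06), and the lung difference was 0.00 with a 95% interval from -0.08 to 0.09 (adjusted p = 0.95). Under the GC offset the lung difference was -0.22 (adjusted p = 5.2e-06) and the spleen rise 0.43.

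*Hcst*, the DAP10 gene, serves NKG2D. In lung its levels were 116.4 and 101.9 CPM (*Wt*) and 97.44 and 105.8 CPM (KO), and its spleen levels 127.4 and 109.4 CPM (*Wt*) and 146.6 and 134.6 CPM (KO). Only spleen KO stood clear of its control, by 18.3% (log2 fold change 0.24, SE 0.06, adjusted p = 0.0014). Without the second spleen *Wt* library the log2 fold change was 0.11 and lost its call. In lung the difference was -0.12, with a 95% interval from -0.27 to 0.03 (adjusted p = 0.17), and under the GC offset -0.45 (adjusted p = 6.7e-07), the largest adaptor value in lung, with 0.53 in spleen. *Hcst* is among the most GC-rich members, with 57.4% G or C in its exons.

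*Cd247* was the member that passed the test in neither organ. CD3ζ pairs with NKp46 in NK cells and with the T-cell receptor in T cells. Its lung levels were 306.5 and 329.6 CPM (*Wt*) and 316.6 and 308.9 CPM (KO), and its spleen levels 296.2 and 287.7 CPM (*Wt*) and 292.3 and 275.3 CPM (KO). The groups overlapped in both organs. The log2 difference was -0.02 in lung (95% interval from -0.11 to 0.08, adjusted p = 0.79) and -0.06 in spleen (from -0.15 to 0.04, adjusted p = 0.31). *Pou2f1*, whose antisense exons lie over those of *Cd247*, stood at 30.91 ± 1.25 and 19.96 ± 0.378 CPM (SD, n = 2) in lung *Wt* and KO, and at 14.28 ± 0.0943 and 17.33 ± 0.0886 in spleen.

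Both kinases that bind ITAMs moved in opposite directions within each organ. In the fit without the GC offset, *Zap70* had the largest differences of all members. In lung its levels were 91.32 and 87.65 CPM (*Wt*) and 133.6 and 141.6 CPM (KO), and its spleen levels 133.4 and 131.3 CPM (*Wt*) and 73.31 and 84.41 CPM (KO). The groups of each organ were far apart, high in lung KO and low in spleen KO. *Zap70* rose by 53.5% in lung (log2 fold change 0.62, SE 0.07, adjusted p = 3.7e-10) and fell by 37.7% in spleen (-0.68, SE 0.06, adjusted p = 5.1e-12). *Zap70* is the most GC-rich member (58.8%), and under the GC offset these changes were 0.25 (adjusted p = 0.00097) and -0.36 (adjusted p = 1.3e-06), smaller but past the threshold, and below those of *Hcst*, *Fcer1g* and *Syk* in size. Ordered by level, lung KO and spleen *Wt* did not pass the test against each other (adjusted p = 0.41), nor did lung *Wt* and spleen KO (adjusted p = 0.085), and the step between these pairs, spleen *Wt* over lung *Wt*, was 0.55 (adjusted p = 4.3e-09).

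*Syk*, the kinase that most hematopoietic cells other than T cells use, had the reverse pattern. Its lung levels were 68.12 and 68.26 CPM (*Wt*) and 60.67 and 59.34 CPM (KO), and its spleen levels 67.81 and 60.29 CPM (*Wt*) and 82.10 and 84.33 CPM (KO). Spleen KO stood above every other group, and the other 3 lay close together. *Syk* rose by 33.3% in spleen (log2 fold change 0.41, SE 0.07, adjusted p = 2.1e-06). In lung it fell by 12.1% (-0.19, SE 0.08, adjusted p = 0.04). That call was lost in 9 of 19 alternatives, among them the replicate block (-0.18, adjusted p = 0.052), DESeq2 (-0.20), library totals (-0.09) and the removal of any 1 of the 4 lung libraries (-0.17 to -0.20). The GC offset gave -0.36 in lung and 0.54 in spleen.

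*Lck*, the Src family kinase that starts ITAM phosphorylation, had small differences whose sign depended on the setting. In lung its levels were 1430 and 1517 CPM (*Wt*) and 1540 and 1529 CPM (KO), and its spleen levels 1756 and 1680 CPM (*Wt*) and 1610 and 1611 CPM (KO). The organs did not overlap, spleen being higher. The lung difference was 0.06 (95% interval from -0.01 to 0.13, adjusted p = 0.15), and under the GC offset it was -0.17 (adjusted p = 2.4e-05). In spleen *Lck* fell by 6.12% (log2 fold change -0.09, SE 0.04, adjusted p = 0.029), a call that was lost in 8 alternatives, among them the removal of the first spleen *Wt* library (-0.06) or of either spleen KO library (-0.09), and turned to 0.11 (adjusted p = 0.0054) under the GC offset.

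Lung levels of *Lat* were 190.3 and 190.8 CPM (*Wt*) and 230.4 and 236.8 CPM (KO), and its spleen levels 220.4 and 206.6 CPM (*Wt*) and 205.9 and 194.7 CPM (KO). Lung KO stood above all other groups. *Lat* rose by 22.8% in lung (log2 fold change 0.30, SE 0.05, adjusted p = 6e-06), but under the GC offset the value was -0.05 (adjusted p = 0.39), and its exons hold 58.0% G or C. In spleen the difference was -0.10 (95% interval from -0.20 to 0.00, adjusted p = 0.072), which passed the test in the other direction, at 0.20 (adjusted p = 0.00021), under the GC offset.

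Alternative settings moved the members in groups. Under the GC offset, 1 member rose in lung (*Zap70*) and 7 fell, against 25.3% and 28.8% of all genes, and in spleen 8 rose and 1 fell (*Zap70*), against 29.3% and 26.3%, so *Zap70* was then the only member called against the direction of the rest. Scaling by library totals moved the median log2 fold change of all genes to 0.113 in lung and -0.065 in spleen, and the share of called genes that rose in lung to 63.3%. Under it 3 members rose in lung (*Zap70*, *Lck*, *Lat*) and 1 fell (*Fcer1g*), against 35.1% and 20.4% of all genes, and in spleen 6 rose and 4 fell, against 23.6% and 33.6%.

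**Figure D3:**
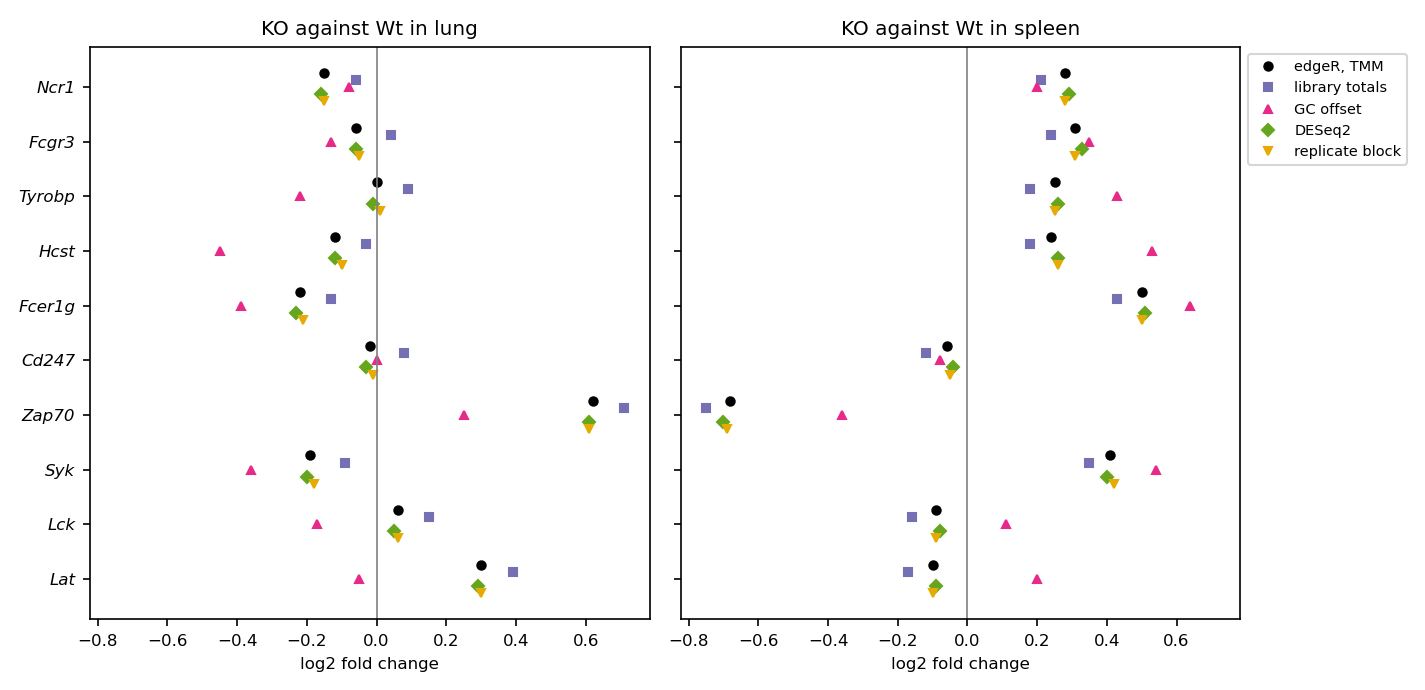
Log2 fold change of KO against *Wt* for each member in lung and spleen under 5 settings of the fit. The GC offset moves *Hcst*, *Lat* and *Lck* across or away from 0, while *Zap70* stays above 0 in lung and below 0 in spleen under all 5.

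The difference between the KO effects of the organs was tested directly. It sets lung KO and spleen *Wt* against lung *Wt* and spleen KO, so another factor split that way cannot be told apart from it. The difference passed for 9 of the 10 members, all but *Cd247*, against 61.6% of all genes. Without the GC offset *Zap70* had the largest difference (lung minus spleen 1.30, SE 0.09, adjusted p = 2e-15), followed by *Fcer1g* at -0.72 (SE 0.06, adjusted p = 6.6e-14) and *Syk* at -0.60 (SE 0.10, adjusted p = 4e-06). The values were -0.43 for *Ncr1*, -0.37 for *Fcgr3*, -0.36 for *Hcst*, -0.24 for *Tyrobp*, 0.15 for *Lck* and 0.40 for *Lat*. For *Cd247* it was 0.04, with a 95% interval from -0.09 to 0.17 (adjusted p = 0.63). The 4 members that passed in both organs (*Ncr1*, *Fcer1g*, *Zap70* and *Syk*) all had opposite signs in the 2 organs, as did 27.0% of all genes tested. The libraries of KO and *Wt* did not overlap for 6 members in lung and 9 in spleen, against 76.0% and 73.8% of all genes. The values for *Lck* (-0.28) and *Lat* (-0.25) had the other sign under the GC offset, while that of *Zap70* stayed past the threshold in all 18 alternatives, at its lowest 0.60. That lowest value came with the GC offset, under which *Fcer1g* (-1.03), *Hcst* (-0.97), *Syk* (-0.90) and *Tyrobp* (-0.66) differed by more. DESeq2 called 7 members, against 42.3% of all genes, without *Tyrobp* (-0.27, adjusted p = 0.055) and *Lck* (0.13, adjusted p = 0.059). Under library totals *Tyrobp* (-0.08) and *Hcst* (-0.20) were not called while *Cd247* (0.20) was.

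Lung and spleen were also compared within each genotype. In *Wt*, 8 of 10 members differed (57.0% of all genes). *Ncr1* (log2 lung over spleen 0.15), *Fcer1g* (0.37) and *Cd247* (0.12) were higher in lung, and *Zap70* (-0.55), *Fcgr3* (-0.31), *Lck* (-0.22), *Tyrobp* (-0.17) and *Lat* (-0.15) were lower. The *Cd247* call was lost without the second lung *Wt* library (0.08) or the second spleen *Wt* library (0.09), and the *Lat* call without the first lung *Wt* library (-0.14) or the first spleen *Wt* library (-0.12). In KO, 9 of 10 differed (65.6% of all genes), and the signs of *Ncr1* (-0.27), *Fcer1g* (-0.35), *Zap70* (0.75) and *Lat* (0.24) were then the reverse of those in *Wt*. *Fcgr3* (-0.68), *Tyrobp* (-0.41), *Hcst* (-0.43) and *Syk* (-0.49) were lower in lung KO than in spleen KO, and *Cd247* (0.16) was higher, a call lost without the second spleen KO library (0.10). Across genotypes, 40.0% of all genes differed between lung KO and spleen *Wt* and 60.4% between lung *Wt* and spleen KO. The highest group exceeded the lowest by 1.75 times for *Zap70*, 1.62 times for *Fcgr3*, 1.42 times for *Fcer1g* and 1.12 times for *Cd247*. The levels of the other members fell into fewer steps. For *Fcgr3* and *Tyrobp* both spleen groups and the lung pair were told apart, but not the 2 lung groups (adjusted p = 0.38 and 0.95). For *Hcst* spleen KO stood above the rest, whose steps between neighbours did not pass (adjusted p = 0.46 and 0.17), and the same held for *Syk* (0.20 and 0.49). Groups further apart did pass. Lung KO lay below spleen *Wt* for *Hcst* (-0.18, adjusted p = 0.04) and below lung *Wt* for *Syk* (-0.19, adjusted p = 0.04). For *Lck* spleen *Wt* was highest and for *Lat* lung KO, with no further step between neighbours past the threshold. Lung *Wt* lay below spleen KO for *Lck* (-0.13, adjusted p = 0.002) and below spleen *Wt* for *Lat* (-0.15, adjusted p = 0.011). For *Cd247* no step between neighbours passed (adjusted p = 0.79, 0.08 and 0.31). Under the GC offset the *Wt* differences of *Tyrobp* (0.03) and *Lat* (0.10) and the KO difference of *Lat* (-0.15) had the other sign.

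Ratios of 2 members within a library do not depend on how libraries are scaled. They can still carry the trend with GC content, for which they were not corrected. The exons of *Syk* hold 53.1% G or C and those of *Zap70* 58.8%, those of *Fcer1g* 53.3% and those of *Cd247* 47.1%. Reads of *Syk* per read of *Zap70* were 0.746 and 0.779 (*Wt*) and 0.454 and 0.419 (KO) for lung, and 0.508 and 0.459 (*Wt*) and 1.12 and 0.999 (KO) for spleen. The groups of each organ did not overlap. Per kilobase, the ratio of *Syk* to *Zap70* was 0.244 ± 0.0074 (SD, n = 2) in lung *Wt* and 0.140 ± 0.0079 in lung KO, a log2 difference of -0.80. In spleen it was 0.155 ± 0.011 in *Wt* and 0.339 ± 0.027 in KO, a log2 difference of 1.14. *Zap70* thus exceeded *Syk* per kilobase in every library, least in spleen KO.

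The adaptors gave a second pair. *Fcer1g* per kilobase exceeded *Cd247* 54.8 ± 6.0 times (SD, n = 2) for *Wt* and 47.9 ± 1.5 times for KO in lung, and 46.2 ± 1.5 and 67.4 ± 0.048 times in spleen. The size of this ratio is uncertain, since antisense *Pou2f1* exons cover 56.43% of the exon length of *Cd247*. *Hcst* over *Tyrobp*, the genes that lie tail to tail, differed by less: 0.0649 ± 0.0030, 0.0603 ± 0.0002, 0.0623 ± 0.0030 and 0.0623 ± 0.00013 in the same order, a log2 difference of -0.10 in lung and 0.00 in spleen. *Lck* over *Fyn*, another Src family kinase, was 6.41 ± 0.096, 8.44 ± 0.0020, 9.26 ± 0.23 and 8.16 ± 0.27. With 2 libraries against 2 no exact permutation test can reach p = 0.05, and no other test of the ratios was run.

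**Figure D4:**
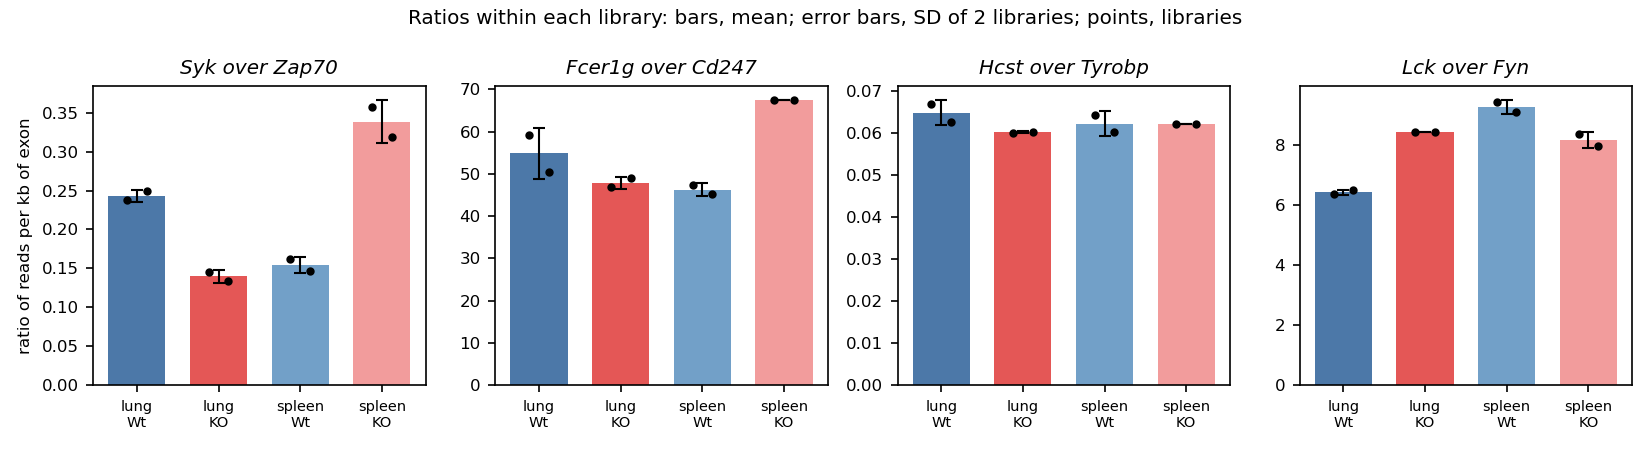
Ratios of reads per kilobase of exon between pairs of genes within each library. Bars show the mean of 2 libraries, error bars the SD and points the libraries. *Syk* over *Zap70* is lowest in lung KO (0.140) and spleen *Wt* (0.155) and highest in spleen KO (0.339).

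Over the 8 libraries, the genes whose log2 CPM was most like that of *Zap70* were *Gm15821* (Pearson r = 0.9956) and *Trpv2* (0.9915), and those most like *Syk* were *Rack1* (0.9878) and *Gm45205* (0.9829). *Mettl18* (0.9953) was most like *Fcgr3*, *Tspo* (0.9938) like *Tyrobp*, *Frg1* and *Fgf2* (both 0.9909) like *Ncr1*, *Akirin2* (0.9902) like *Lat*, *Wbp5* (0.9896) like *Fcer1g*, *Ptrhd1* (0.9888) like *Hcst*, *Kmt2b* (0.9804) like *Cd247* and *A930015D03Rik* (0.9691) like *Lck*. These are descriptions over 8 points that share 4 groups, and they were picked as the highest of all genes tested.

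A list of 8 other activating receptors held 5 that pair with the adaptors (*Klrk1*, *Klrb1c*, *Klrc2*, *Klra4* and *Klra8*) and 3 that do not (*Cd226*, *Cd160* and *Crtam*). All 8 fell in lung KO, against 26.4% of all genes, and in spleen KO the 5 that pair rose, against 28.2% of all genes, while *Cd226* fell. The DAP12 partners *Klra4* (Ly49D) and *Klra8* (Ly49H) fell in lung (log2 fold changes -0.30 and -0.17) and rose in spleen by 0.33 and 0.53. *Klrk1* (NKG2D), the partner of DAP10, was 3170 ± 57.5 CPM (SD, n = 2) in *Wt* and 2728 ± 29.1 in KO of lung, and 3116 ± 56.6 and 3820 ± 20.3 in spleen. *Klrb1c* carries the NK1.1 epitope used in the sort. *Cd226* (DNAM-1) fell in both organs (-0.69 in lung, -0.23 in spleen). The median log2 fold change of the list was -0.30 in lung and 0.17 in spleen. All values of this list are from the fit without the GC offset, under which *Cd226* in lung was -0.48. The part of GC content in the pattern of the list was not tested.

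Other kinases and the downstream genes were mixed. Over the 62 pathway genes tested of 65 listed (the rest had too few reads), 20 rose, 23 fell and 19 were not called in lung. Of all genes tested, 29.2% rose and 26.4% fell there. In spleen 16 rose, 28 fell and 18 were not called, against 28.2% and 28.9% of all genes that rose and fell. Of 7 Src and Tec kinases tested, 2 rose and 4 fell in lung, and 2 rose and 2 fell in spleen. *Fyn*, a Src family kinase, fell in lung (log2 fold change -0.33) and rose in spleen (0.11), opposite to *Zap70*. *Yes1* had the largest changes of this list, -1.13 and 1.56, on 5 to 81 reads per library, and its call was lost when 2 of the lung and 2 of the spleen libraries were each left out (-0.87 to -0.98 and 1.29 to 1.48).

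Among 29 scaffolds and effectors, 12 rose and 8 fell in lung, against 29.2% and 26.4% of all genes. In spleen 7 rose and 14 fell, against 28.2% and 28.9%. *Plcg1*, the phospholipase that binds LAT, had 6 and 4 reads (*Wt*) and 21 and 27 reads (KO) in lung, and 17 and 15 (*Wt*) and 0 and 1 (KO) in spleen. It rose in lung (log2 fold change 2.20, adjusted p = 9.5e-05) and fell in spleen, where 1 read in KO against 32 in *Wt* gave a ratio of 0.013 with a 95% counting interval from 0.00032 to 0.077. *Prkch*, a protein kinase C, rose in lung by 0.86 on the log2 scale, and *Gab3* rose in spleen by 0.60. *Was*, the Wiskott-Aldrich protein of the actin machinery, fell in spleen (-0.88). *Pik3cb* fell in lung (-0.56) and rose in spleen (0.54), and *Vav2* fell in spleen (-0.83), calls that were lost without single libraries (*Vav2* stood at -0.09 without the second spleen KO library).

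Of 18 proximal inhibitors, 6 rose and 3 fell in lung, against 29.2% and 26.4% of all genes. In spleen 2 rose and 11 fell, against 28.2% and 28.9%. *Dok1*, an adaptor that dampens tyrosine kinase signals, had the largest change of this list in lung, 1.35 on the log2 scale (adjusted p = 7.9e-08), from 7.533 ± 0.0503 to 19.76 ± 4.13 CPM (SD, n = 2).

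**Figure D5:**
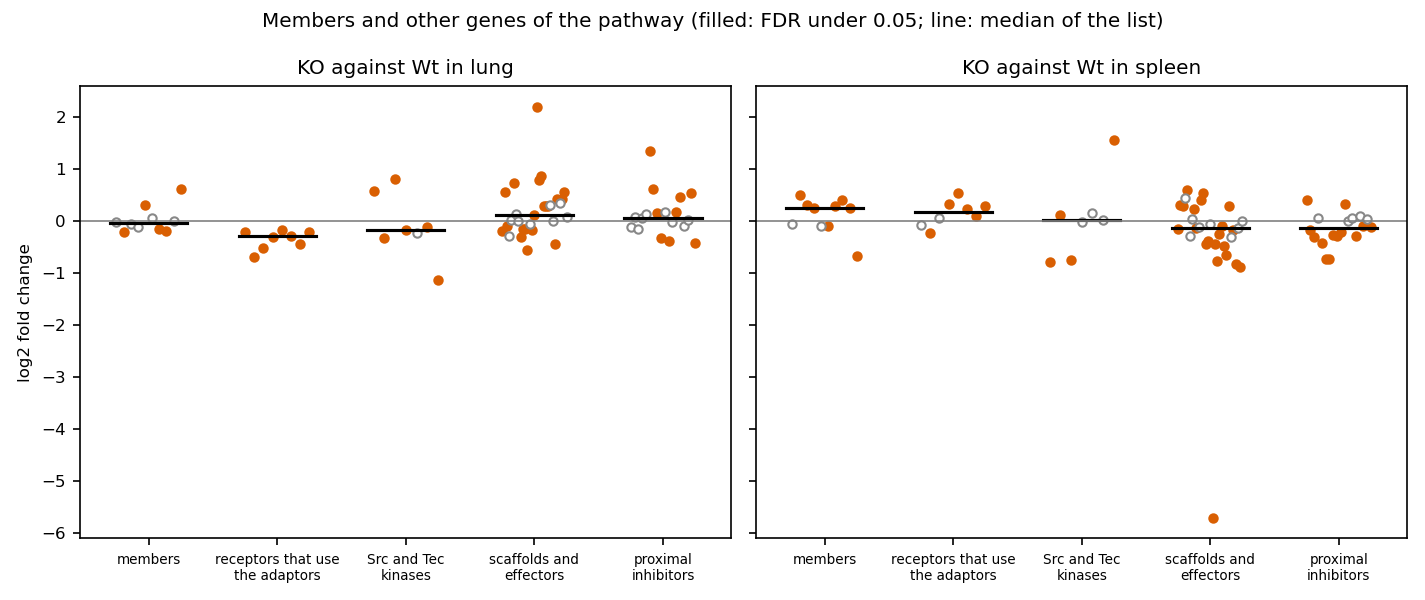
Log2 fold change of KO against *Wt* in lung (left) and spleen (right) for the members and the other pathway genes, by list. Filled points passed an FDR of 0.05 and lines show list medians. The points of the receptor list lie below 0 in lung, and the lowest point in spleen is *Plcg1*, with 0 and 1 reads in KO, whose fitted value depends on the prior count.

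Markers of other cells were compared beside the members, since several members are also used by T, myeloid or mast cells. Fewer cells of a type and less RNA per cell cannot be told apart in such samples. The summed level of 8 NK markers was 46100 to 47700 CPM (*Wt*) and 36000 to 36400 (KO) in lung and 32100 to 32900 (*Wt*) and 42500 to 44800 (KO) in spleen, and so moved with *Ncr1* and *Fcer1g*, mainly through *Gzma* and *Nkg7*. All 16 T-cell markers had reads, with sums of 868 to 897, 707 to 722, 1120 and 1260 to 1310 CPM in the same order, while *Cd4*, *Cd8a*, *Cd8b1*, *Cd5* and *Cd6* stayed at or below 2.24 CPM. *Trbc1*, *Trdc* and *Cd28* carried most of that sum, and single markers differed. *Cd3e* stood at 31.9 and 32.4 CPM in *Wt* and 7.49 and 11.1 in KO of spleen, where *Zap70* was also lower. In lung *Cd3e* stood at 7.69 and 6.98 against 6.33 and 7.47. Other T-cell markers were mixed in spleen. Of the 11 tested, 4 rose and 2 fell in KO, against 28.2% and 28.9% of all genes. *Tcrg-C2* went from 15.5 and 17 CPM in *Wt* to 6.84 and 7.84 in KO, and *Tcrg-C1* from 10.5 and 10.1 to 5.21 and 9.44. *Cd3d* went from 59.1 and 62.2 CPM in *Wt* to 72 and 64.3 in KO. *Cd3g* went from 61.3 and 60.8 to 57.3 and 55.2, and *Trac* from 18.9 and 21.2 to 30 and 27.4. Of 16 myeloid markers 12 had reads, with sums of 37.6 to 39.8, 38.2 to 42.5, 21 to 23.2 and 28.7 to 28.9 CPM, and *S100a8*, *S100a9*, *Adgre1* and *Fcgr1* were at 0. Of 6 mast cell and basophil markers 2 had reads, with sums of 1.29 to 4.70 CPM over all libraries, and *Fcer1a*, *Ms4a2*, *Mcpt4* and *Tpsb2* were at 0. The 7 B-cell markers summed to 298 to 309, 261 to 267, 578 to 592 and 690 to 709 CPM, mostly *Ighm*, and the 8 markers of other innate lymphoid cells to 450 to 554 CPM, with *Il13* at 0. Their part in the members' differences was not tested.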

How the data were processed

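NK cells of both organs and genotypes were sequenced with 50-base reads from a kit that does not mark strand. The authors aligned the reads to mm10 with HISAT2 2.1.0 and deposited unnormalized read counts made by HTSeq (0.11.1 in the submitters' processing notes), 1 per symbol. The annotation and strand setting are not given in the sources used here. HTSeq's categories of uncounted reads (52.67% to 55.05% on no feature, 0.686% to 0.768% ambiguous) were left out of library sizes.

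Counts were fitted in R 4.3.3 with edgeR 4.0.16 (quasi-likelihood test, TMM scaling, filterByExpr, 1 mean per group over all 8 libraries), with Benjamini-Hochberg adjustment over the 12595 genes tested. Standard errors were derived from the F statistic. Alternatives were scaling by RLE, the upper quartile or library totals, omission of the filter or a minimum of 10 counts per library, DESeq2 1.42.0, the likelihood ratio test, the replicate block, an assumed coefficient of variation of 0.2, the GC offset (a spline with 5 degrees of freedom), the 4 libraries of a comparison, and leaving out each library in turn. Lung KO against spleen *Wt* and lung *Wt* against spleen KO were added after seeing the data. The steps were tested on simulated data.

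Of the symbols listed, 46394 matched GENCODE M21 by name and 591 by an older name. The members, gene lists and alternatives were chosen with earlier results of these data known. Named were all members, and from each direction and organ the 3 pathway genes with the largest change past the threshold whose groups did not overlap, with the 2 genes most like each member, *Ccl5* and markers. *Klra4*, *Klra8*, *Klrk1* and *Fyn* were named after their values were seen. Results that need withheld items are not reported here.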

Additional observations from a re-analysis of the deposited data

Results flagged for a closer look

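The change of KO against *Wt* differed between lung and spleen for 9 of the 10 members. This is by the test of the difference itself (edgeR's quasi-likelihood test, 2 libraries per group). Another factor that split lung KO and spleen *Wt* from lung *Wt* and spleen KO cannot be told apart from it. As lung minus spleen on the log2 scale, the differences were 1.30 for *Zap70*, 0.40 for *Lat* and 0.15 for *Lck*. They were -0.72 for *Fcer1g*, -0.60 for *Syk*, -0.43 for *Ncr1*, -0.37 for *Fcgr3*, -0.36 for *Hcst* and -0.24 for *Tyrobp*. With 61.6% of all genes past the same threshold, such a difference was common in these libraries. For *Hcst* the call was lost without the first lung *Wt* library (-0.25) or the second spleen *Wt* library (-0.23), and for *Lck* without the first lung *Wt* library (0.09). DESeq2 did not call *Tyrobp* (-0.27) or *Lck* (0.13), and with library totals *Tyrobp* (-0.08) and *Hcst* (-0.20) were not called. Under the GC offset *Lck* (-0.28) and *Lat* (-0.25) had the other sign.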

How the results depend on the processing

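Over the 10 members, 5 comparisons and their alternatives, 839 values kept their side of the threshold (8 of them, not called in either fit, with another sign), 74 lost their call, 20 gained one and 7 called values changed sign. These 7 came with the GC offset: *Lat* (-0.05) in lung, *Lck* (0.11) in spleen, *Lck* (-0.28) and *Lat* (-0.25) in the difference, *Tyrobp* (0.03) and *Lat* (0.10) for lung against spleen in *Wt*, and *Lat* (-0.15) in KO. Of the 20 gained, 3 had the other sign, also with the GC offset: *Lck* (-0.17) in lung, *Lat* (0.20) in spleen and *Hcst* (0.19) between organs in *Wt*. The GC offset called 8 members in lung, against 54.1% of all genes, and DESeq2 called 5 between organs in *Wt*, against 38%. With an assumed coefficient of variation of 0.2, larger than the spread seen between these libraries, 0 members were called in lung, 0 in spleen, 1 in the difference, 0 between organs in *Wt* and 1 in KO, with 3, 3, 9, 4 and 8 pathway genes in the same order. All genes called then numbered 1557 in lung, 1144 in spleen, 2018 in the difference, 2011 and 2316 between organs, and DESeq2 called 4507 in lung and 4165 in spleen. Without the second spleen KO library, the deepest, 4448 genes were called in spleen. Whether libraries of equal replicate number were paired is not known. Their deviations correlated between genotypes at -0.012 in lung and 0.169 in spleen. Between organs the values were 0.005 in *Wt* and -0.077 in KO. With 2 libraries per group such values cannot decide whether libraries were paired. The replicate block called 6977 genes in lung and 7185 in spleen, and among KO effects on members it ended only the *Syk* call in lung (-0.18). Leaving out 1 library kept the signs of the 5 members called in lung. Their log2 fold changes were then 0.57 to 0.66 for *Zap70*, 0.28 to 0.32 for *Lat* and -0.13 to -0.16 for *Ncr1*. Those of *Fcer1g* were -0.16 to -0.28 and those of *Syk* -0.17 to -0.20. Calls lost then are given with the members above. Where a group was left with 1 library, that library was assumed to vary like the other groups.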

Other observations

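Among the 8 NK markers, 2 moved with *Zap70* rather than with *Ncr1* in KO against *Wt* within each organ. *Tbx21*, the gene of the transcription factor T-bet, stood at 216 and 221 CPM (*Wt*) and 477 and 479 CPM (KO) in lung, and at 341 and 330 CPM (*Wt*) and 150 and 147 CPM (KO) in spleen. *Prf1*, the perforin gene, stood at 1460 and 1550, 2470 and 2550, 1300 and 1320, and 937 and 936 CPM in the same order. The groups of each organ did not overlap for either gene. Between organs in *Wt*, *Prf1* was higher in lung, as was *Ncr1*, while *Tbx21* and *Zap70* were lower there. In edgeR's quasi-likelihood test the log2 fold changes of *Tbx21* were 1.13 (adjusted p = 3.43e-22) in lung and -1.18 (adjusted p = 5.08e-22) in spleen, and those of *Prf1* were 0.74 (adjusted p = 2.23e-19) and -0.48 (adjusted p = 1.34e-13). *Eomes*, the related T-box factor, did not pass in lung (0.02, adjusted p = 0.706) and rose by 0.15 in spleen (adjusted p = 0.0094). These genes were named after their values were seen, and their values are from the fit without the GC offset.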
